A study of Mus musculus with 4 samples.

Results

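The chemokine ligands are the secreted proteins that chemokine receptors bind, and they were taken here as every gene with a symbol of the Ccl, Cxcl, Xcl or Cx3cl series together with Pf4 and Ppbp, the platelet chemokines Cxcl4 and Cxcl7. This rule found 40 of the 32285 genes in the table. The cells were live CD45+ (hematopoietic) cells sorted from tumors of 20967, a mouse melanoma line grown intradermally in wild-type C57BL/6 mice. The line came from C57BL/6 animals with the alleles Nras+LSL-G12D and Tyr::CreERT2+/o, in which a melanocyte promoter drives the Cre. Each group had 5 tumors, namely control tumors treated with topical control cream, and GC tumors treated with topical clobetasol propionate, a potent synthetic glucocorticoid (GC). The tumors were collected on the fourth day after treatment. Each tumor carried its own hashtag barcode (control 1 to 5 and GC 1 to 5), all tumors of a group were run in 1 10x channel, and treatment and channel therefore cannot be told apart. All tumors came from this 1 line, and the age of the mice is not given in the sources used here.

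Chemokines form gradients that draw leukocytes carrying the matching G protein-coupled receptor. CXC ligands with an ELR motif, such as Cxcl2, bring in neutrophils through Cxcr2, the interferon-induced Cxcl9 and Cxcl10 bring in activated T and NK cells through Cxcr3, and CC ligands such as Ccl3, Ccl4 and Ccl5 act on monocytes, dendritic cells (DC) and T cells, in part through Ccr1. Glucocorticoids are known in general for holding down NF-κB- and AP-1-driven inflammatory genes, many chemokines among them. The comparison asked which CD45+ cells held the transcripts of each ligand and whether their level differed between control and GC tumors.

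Of the 40 ligands, 39 were placed on GRCm38, 12 of them on chromosome 5 and 12 on chromosome 11, where near neighbors are often related in sequence. The genes the results turn on lie at chromosome 5:90903871-90905938 on the plus strand (Cxcl2), 5:92346638-92348889 on the minus strand (Cxcl10) and 5:92321347-92328079 on the minus strand (Cxcl9). Ccl9 is at 11:83572919-83578636, Ccl4 at 11:83662584-83664683, Ccl3 at 11:83647844-83649355 and Cxcl14 at 13:56288643-56296551. No member overlapped another gene on its own strand, and counts from the 3' kit are strand-specific.

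RefSeq promoter windows (250 bases before to 50 after the start, GRCm38.p6) were found for 29 members. Those of the 3 CXC ligands described at most length are shown because their levels in tumor-associated macrophages (TAMs) are compared one by one in what follows. Capitals mark matches, on either strand, to 4 short motifs: the interferon-response core GAAANNGAA, the NF-κB site GGANTTTCC, the AP-1 site TGANTCA and the glucocorticoid-response core ACANNNTGT.
Cxcl2, chr5:90903649-90903948, plus strand: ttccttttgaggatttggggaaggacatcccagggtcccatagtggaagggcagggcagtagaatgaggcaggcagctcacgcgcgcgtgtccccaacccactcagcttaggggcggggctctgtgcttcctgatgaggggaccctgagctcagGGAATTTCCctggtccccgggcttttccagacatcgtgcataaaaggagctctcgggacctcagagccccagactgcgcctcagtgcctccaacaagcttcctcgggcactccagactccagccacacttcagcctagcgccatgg
Cxcl9, chr5:92328030-92328329, minus strand: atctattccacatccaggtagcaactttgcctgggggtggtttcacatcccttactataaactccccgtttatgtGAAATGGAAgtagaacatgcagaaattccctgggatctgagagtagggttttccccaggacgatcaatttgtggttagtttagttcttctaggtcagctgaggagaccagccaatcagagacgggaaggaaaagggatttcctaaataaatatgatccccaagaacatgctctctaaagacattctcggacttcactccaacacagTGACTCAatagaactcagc
Cxcl10, chr5:92348840-92349139, minus strand: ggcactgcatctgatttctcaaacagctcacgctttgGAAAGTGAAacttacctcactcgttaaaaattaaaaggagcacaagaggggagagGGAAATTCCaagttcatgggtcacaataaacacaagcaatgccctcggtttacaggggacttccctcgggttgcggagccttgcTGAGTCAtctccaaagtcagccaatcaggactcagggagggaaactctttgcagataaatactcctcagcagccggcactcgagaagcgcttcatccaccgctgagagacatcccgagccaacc
The Cxcl2 window held 1 NF-κB match, 96 bases before the start. The Cxcl9 window held an interferon-response match 175 bases before the start and an AP-1 match just after it, and the Cxcl10 window held an interferon-response match at 213, an NF-κB match at 158 and an AP-1 match at 74 bases before the start. Among all 32851 promoters of this length, 8.56% held the interferon-response core, 1.25% the NF-κB site, 7.81% the AP-1 site and 6.85% the glucocorticoid-response core. Among the 29 members, 6 held the first, 4 the second (Cxcl1, Cxcl2, Cxcl3 and Cxcl10), 7 the third and 1 the fourth (Cxcl1). These matches are descriptions of the letters in the windows and were not tied to any factor.

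The table held 3803 control cells, 347 to 1250 per tumor, and 305 GC cells, 18 to 111 per tumor, with 32034696 and 3216052 UMIs (unique transcript tags). Median UMIs per cell were 7440 and 9163, and no cell barcode was shared between the channels. The cell clusters are the authors' own. The fixed markers of CD8 T cells, monocytes, NK cells, neutrophils, eosinophils, γδT cells and both DC clusters were highest in clusters of those names. The monocyte markers were highest in Monocytes 1 (summed level 48.2) and Monocytes 2 (47.6). Monocytes 3, counted with the monocytes in the class shares below, came 8th with 11.9. The DC 2 markers were close in DC 2 (10.1) and DC 1 (9.51). The CD4 and Treg markers, 1 list, were highest in Tregs (summed level 59.4) and next in CD8 2 (22.1), and the cluster called CD4 came 6th with 5.16, under its CD8 marker sum of 7.75. The TAM markers were highest in the small cluster Monocytes 3 (22 control cells, summed level 63.3) and next in the TAM cluster (57.6), and B cell markers were highest, at a summed level of 1.03, in the cluster called CD4. As a check of the labels, 5 GC-induced genes (Tsc22d3, Fkbp5, Zbtb16, Klf9 and Per1) summed to 2.82 to 3.46 in control tumors and to 9.56 to 18.8 in GC tumors. Levels below are UMIs per 10000 UMIs of a cell, averaged over the cells of a tumor, and mean ± SD values are over tumors. The 3' kit gives 1 tag per molecule, so levels were not divided by gene length.

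At least 1 UMI was found for 34 of the 40 ligands. Cxcl2 (28876 UMIs), Ccl4 (26637) and Ccl5 (18965) were the most abundant. No UMI was found for Ccl21a, Ccl21b, Ccl21c, Ccl27b, Cxcl5 or Cxcl13, and 8 further members had between 1 and 8 UMIs in all. For UMIs assigned to 1 gene, a floor of 3 counts over all cells is a level of 0.00085. Reads that fit more than 1 related gene were not examined, so that floor need not hold for members with close relatives. The members without UMIs include ligands known mainly from stromal cells of lymph nodes and skin (the Ccl21 genes, Cxcl13), and Cxcl12, a stromal ligand of Cxcr4, had 2 UMIs. All chemokine ligands together made up 0.396% of control UMIs and 0.440% of GC UMIs. By the rule for named genes 17 members are described one by one, 15 of them for a level of at least 1 in some cluster and 2 (Ccl7 and Cxcl14) only because a test called them. The remaining 23 stayed under 1 in every cluster with 3 or more control tumors of at least 10 cells, up to Ccl2 at 0.97 ± 0.51 in Monocytes 2.

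**Figure D1:**
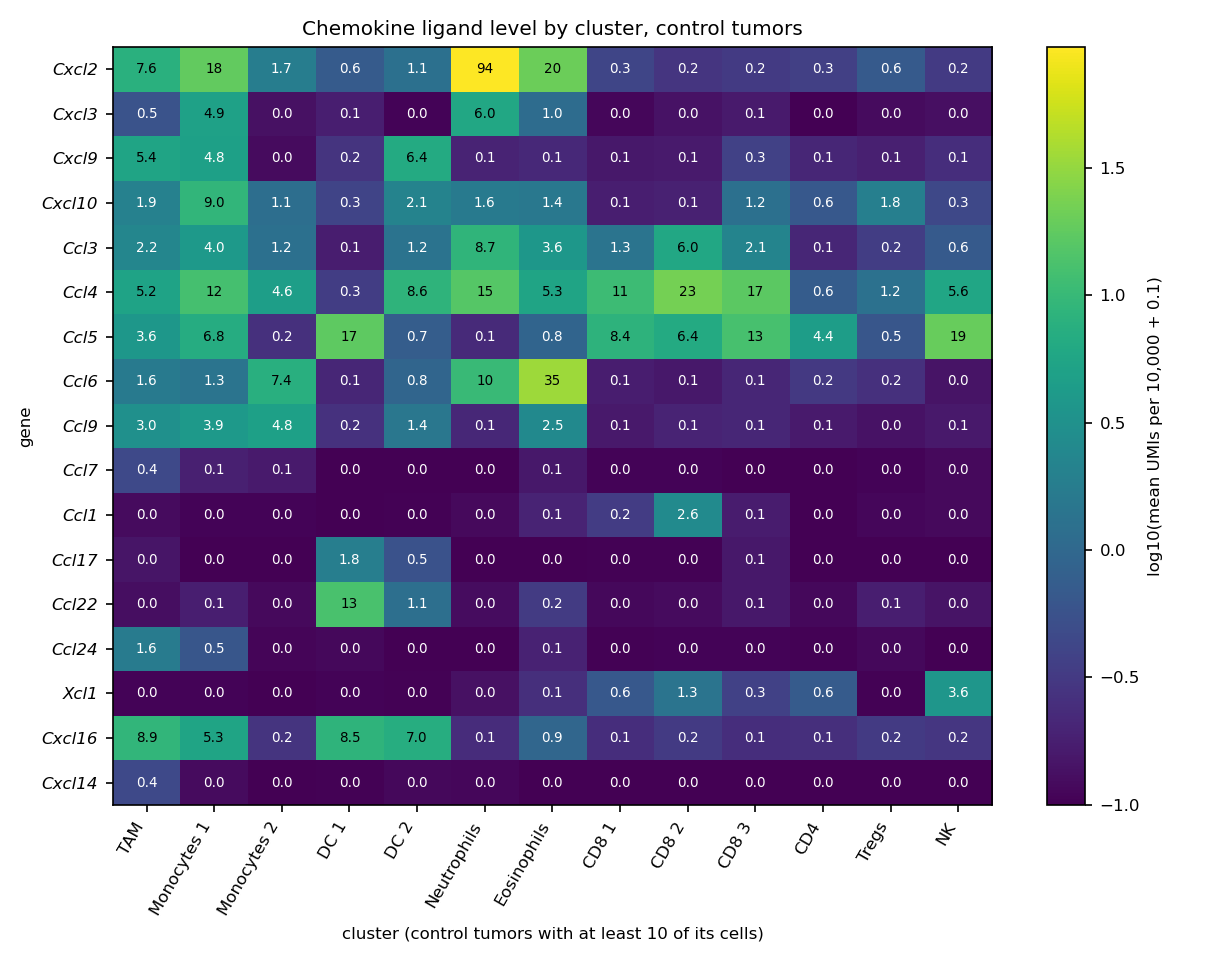
Levels of the named chemokine ligands by cell cluster in control tumors, with clusters on the horizontal and genes on the vertical axis. Each number is the mean over tumors in UMIs per 10000, and the color is log10 of that mean plus 0.1. Cxcl2 peaks in neutrophils (94.0), Ccl6 in eosinophils (34.7), Ccl4 in CD8 2 (22.7) and Ccl22 in DC 1 (13.1).

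The neutrophil-attracting ligands were myeloid. Cxcl2 stood at 94.3, 72.0, 102, 104 and 98.2 in neutrophils of control tumors 1 to 5, a mean of 94.0 ± 12.8. Eosinophils followed at 20.1 ± 2.73 with no overlap (16.1 to 23.3), then Monocytes 1 at 17.9 ± 13.4 (4 tumors, 1.21 to 30.2) and TAMs at 7.56 ± 1.62. The eosinophil cluster, with a median of 873.5 UMIs per cell, also had a neutrophil marker sum of 63.5, against 445 in neutrophils and 18.2 for its own eosinophil markers, and the part of this in its Cxcl2 level was not tested. In CD8 T cells the Cxcl2 level was 0.28, 14.8% of cells holding a UMI against 92.6% of neutrophils (median 6826 and 4220.5 UMIs per cell). Of all control Cxcl2 UMIs, 33.7% lay in monocytes, 31.0% in TAMs and 28.4% in neutrophils. Cxcl3, a close relative with the same receptor, had 5.95 ± 2.66 in neutrophils and 4.93 ± 3.41 in Monocytes 1, and these overlapped. Cxcl1, the third of the group, had only 80 UMIs in 18 cells.

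The interferon-induced pair had different main sources. Cxcl9 was led by DC 2 (6.39 ± 2.50), TAMs (5.37 ± 0.39) and Monocytes 1 (4.75 ± 1.85), which overlapped, and TAMs held 64.0% of its control UMIs. Cxcl10 stood at 11.7, 6.07, 11.5 and 6.62 in Monocytes 1 of the 4 control tumors with enough cells, a mean of 8.97 ± 3.04, above DC 2 (2.06 ± 1.39), TAMs (1.92 ± 0.54) and Tregs (1.84 ± 1.83), which overlapped each other. Monocytes held 54.4% and TAMs 27.3% of control Cxcl10 UMIs.

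The inflammatory CC ligands Ccl3, Ccl4, Ccl5, Ccl6 and Ccl9 were split between T cells and myeloid cells. Ccl4 was highest in CD8 2 (20.5, 24.4, 25.7, 13.8 and 29.0 in control tumors 1 to 5, mean 22.7 ± 5.81), followed by CD8 3 at 16.8 ± 6.59 and neutrophils at 15.4 ± 7.17, all overlapping. Ccl3, its neighbor on chromosome 11, was highest in neutrophils (8.70 ± 3.93) and then CD8 2 (6.00 ± 1.54). Ccl5 was shared by NK cells (19.0 ± 9.55), DC 1 (17.2 ± 5.59) and CD8 3 (12.8 ± 1.42). Ccl6 was highest in eosinophils at 34.7 ± 4.80, above neutrophils at 10.2 ± 1.36, with no overlap of tumors (26.4 to 38.3 against 8.08 to 11.8). Eosinophils are the shallowest cells here (median 873.5 UMIs). Ccl9, a mouse ligand of Ccr1, was highest in Monocytes 2 (4.78 ± 0.72), Monocytes 1 (3.89 ± 1.14) and TAMs (3.03 ± 0.77).

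The remaining ligands were highest in DC, T cells, NK cells or TAMs. Ccl22, which draws Ccr4+ cells such as Tregs, reached 13.1 ± 5.88 in DC 1, the DC with the maturation markers Ccr7 and Fscn1, against 1.12 ± 0.85 in DC 2, and DC 1 held 91.4% of its UMIs. Ccl17, the other Ccr4 ligand, had 1.76 ± 1.37 there. Ccl1, a Ccr8 ligand, had 2.55 ± 1.83 in CD8 2 and 0.24 ± 0.21 in CD8 1, and CD8 T cells held 94.0% of its UMIs. Xcl1, the ligand that draws Xcr1+ cross-presenting DC, had 3.59 ± 1.33 in NK cells and 1.29 ± 0.74 in CD8 2. Cxcl16, a transmembrane ligand of Cxcr6, was similar in TAMs (8.87 ± 0.80) and DC 1 (8.50 ± 0.30). Ccl24, an eosinophil attractant, had 1.61 ± 1.82 in TAMs, and a single cell of control tumor 2 held 41.4% of its control UMIs. The Ccr2 ligand Ccl7 (0.36 ± 0.19) and Cxcl14 (0.36 ± 0.10) had their highest level in TAMs at under 1. The tumors of the first and second cluster did not overlap for Ccl22, Ccl1 and Cxcl14, and overlapped for Ccl17, Xcl1, Cxcl16 and Ccl24. These cluster values are descriptions, since clusters were made from the same genes.

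In all CD45+ cells together, Ccl9 and Cxcl16 were lower in GC tumors, and these were the 2 of 15 ligands with enough reads that limma called at a Benjamini-Hochberg adjusted p under 0.05. Of all 6471 genes tested, 6.15% were called in either direction and 3.82% as lower, and 2 of 15 is a share that rests on few genes. In such a sum of cells, fewer cells of a type and less RNA per cell cannot be told apart. Ccl9 stood at 1.48, 1.17, 1.06, 1.69 and 1.91 in control tumors and at 0.136, 0.439, 0.524, 0.183 and 0.365 in GC tumors. The groups did not overlap, and the difference was −1.93 ± 0.28 (SE) on the log2(level + 0.1) scale (limma adjusted p = 0.0030, edgeR adjusted p = 0.0021). Ccl9 was called in all 19 alternatives, with adjusted p from 1.7e-08 to 0.019.

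Cxcl16 was at 3.52, 3.10, 2.53, 2.57 and 2.13 in control tumors and at 0.719, 2.04, 1.71, 0.849 and 1.15 in GC tumors. The highest GC tumor lay just under the lowest control tumor. The log2 difference was −1.12 ± 0.26 (limma adjusted p = 0.029), while edgeR on the recovered UMIs gave an adjusted p of 0.077. It was called in 11 of 19 alternatives, and not without control 1, 2, 3 or 4 or GC 4.

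With the class makeup of each GC cell held to that of the control cells, a value with no test, the pooled log2 difference was −1.27 for Ccl9 and −0.58 for Cxcl16, against −1.49 and −0.85 for the same cells pooled without that weighting. The TAM marker sum was 10.2 to 17.7 in control and 4.55 to 15.3 in GC tumors, and the monocyte marker sum 12.3 to 18.1 and 2.65 to 12.7. TAMs held 49.4% and monocytes 43.0% of control Ccl9 UMIs. The part of cell makeup in the difference was not tested.

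Ccl4 did not overlap between the groups either (6.53 to 9.22 in control, 0.990 to 6.33 in GC tumors), but limma did not call it (log2 difference −1.12 ± 0.38, adjusted p = 0.106). In all, 3 of the 15 ligands tested did not overlap, against 10.9% of all genes. By edgeR 1 ligand (Ccl9) was called, against 9.43% of all genes. By DESeq2 2 were called, and no share of all genes was computed for that test. The median log2 difference was −0.48 over the 15 ligands and −0.11 over all genes tested, and by edgeR −0.12 and 0.01. The median of all genes thus differs between the 2 scalings. Cxcl2 ranged from 7.03 to 13.9 in control and from 7.74 to 29.2 in GC tumors (0.54 ± 0.37, limma adjusted p = 0.438). Cxcl10 ranged from 1.32 to 2.20 and from 0 to 2.54 (−0.80 ± 0.71, limma adjusted p = 0.566), a difference that edgeR put at 0.46.

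**Figure D2:**
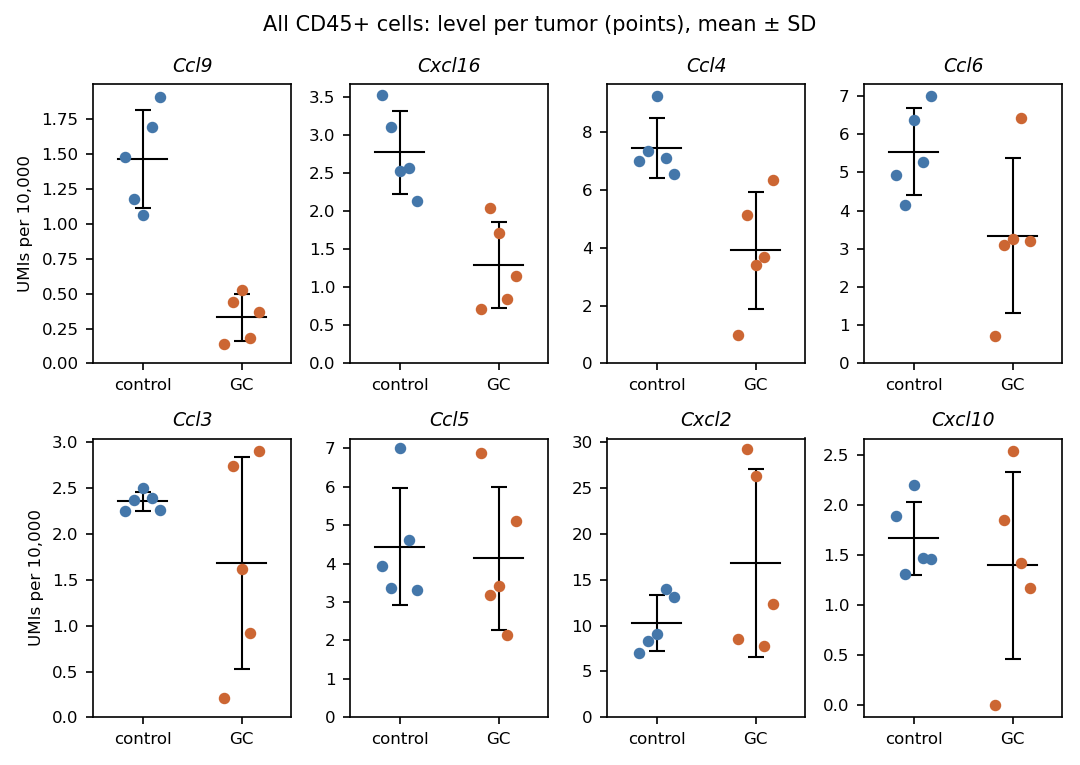
Levels of named ligands in all CD45+ cells of each tumor in UMIs per 10000, control and GC tumors as points, with the mean and SD of each group as a line and bars. The 5 GC tumors lie below the 5 control tumors for Ccl9 (0.136 to 0.524 against 1.06 to 1.91) and Cxcl16.

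Ccl7 showed how 1 cell can set a tumor's level. It was at 4.11 in GC 2 and at 0 to 0.0062 in the other GC tumors, against 0.0235 to 0.137 in control tumors. Of the 270 Ccl7 UMIs of GC cells, 265 came from a single GC 2 cell of 8866 UMIs that also held 145 of the GC Ccl2 UMIs (55.6%). That cell sits in the eosinophil cluster, but it had 294 UMIs of Mcpt2, 167 of Hdc, 140 of Mcpt4, 119 of Tpsb2 and 32 of Cpa3, all granule genes known from mast cells, with 1 UMI of the eosinophil gene Il5ra and none of Siglecf, Ccr3 or Alox15. Without it GC 2 stood at 0.128 for Ccl7 and 0.484 for Ccl2, both genes fell under the filter, and the same 2 ligands (Ccl9 and Cxcl16) were called. This cell was looked for after the values were seen.

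TAMs had the largest number of ligand calls. The test compared 5 control tumors (75 to 198 TAMs each) with GC 2 and GC 3 (17 and 16 TAMs), the only GC tumors with at least 10. Cxcl2 and Cxcl10 were higher and Cxcl14 was lower in GC TAMs by both limma and edgeR. By limma and not by edgeR Ccl4, Ccl9, Ccl7 and Cxcl16 were also lower. Together 7 of 15 ligands tested were called by limma, 2 higher and 5 lower, against 21.2% of all 5988 genes, of which 6.86% were higher and 14.3% lower. Cxcl14, Ccl7, Cxcl3 and Ccl24 passed the filter of 0.2 only through the control tumors, with GC means of 0, 0.024, 0.014 and 0.082. The filter mean covers 5 control and 2 GC tumors, so it admits such genes more readily than genes high only in GC tumors. By edgeR 4 ligands were called (Cxcl2, Cxcl9 and Cxcl10 higher, Cxcl14 lower), against 11.2% of all genes. By DESeq2 8 were called (Cxcl2, Cxcl9, Cxcl10 and Ccl3 higher, Ccl4, Ccl7, Ccl9 and Cxcl14 lower). No share of all genes was computed for that test. In simulated data limma made more false calls in TAMs than its threshold allows while edgeR stayed near it, so calls of both are given first. Those data were drawn as sums per tumor from the count model that edgeR itself uses, with changed genes at a level of at least 1. They hold no single cells, so they cannot show how either test does where a few cells carry a signal or for changed genes under 1.

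**Figure D3:**
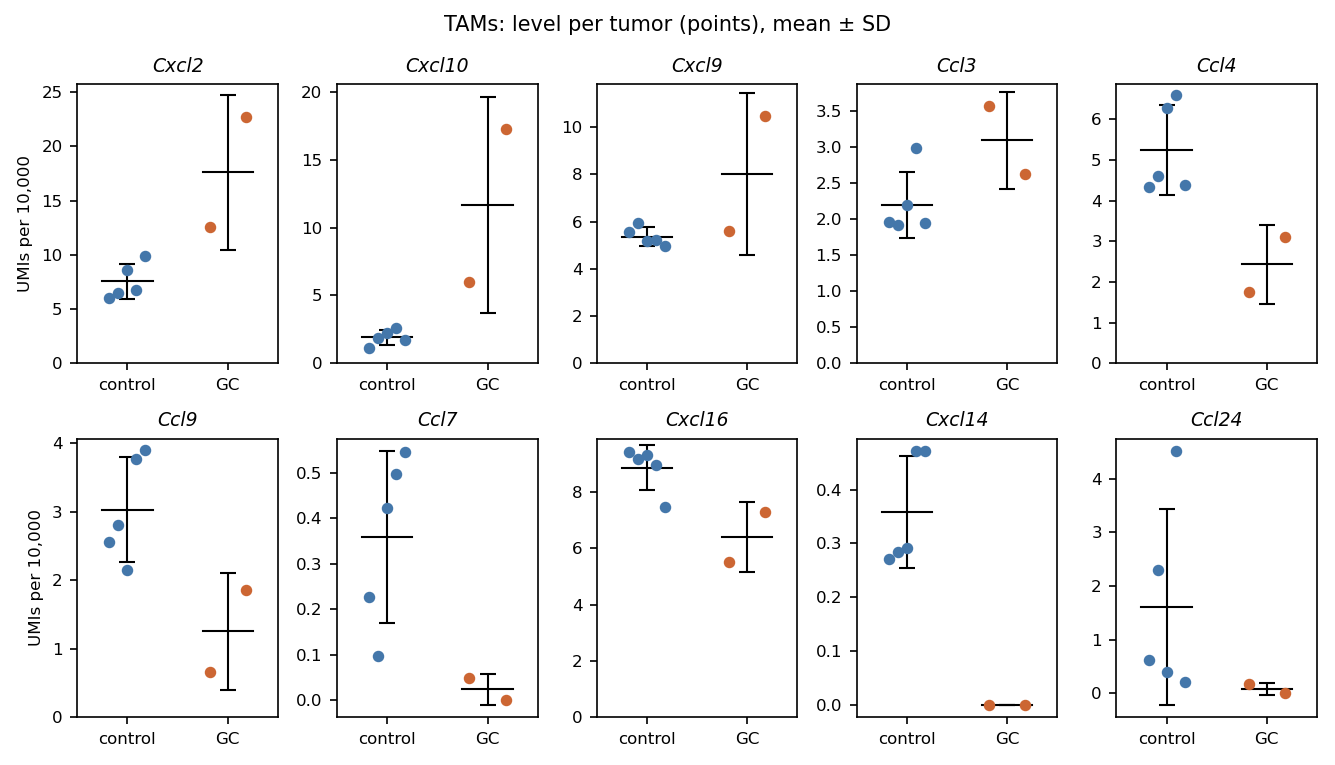
Levels of named ligands in TAMs of each tumor in UMIs per 10000, 5 control and 2 GC tumors as points with the mean and SD of each group as a line and bars. Cxcl2 and Cxcl10 are higher in both GC tumors than in any control tumor, and Cxcl14 is at 0 in both.

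Cxcl10 in TAMs stood at 1.15, 1.89, 2.23, 2.60 and 1.74 in control tumors and at 6.01 and 17.3 in GC 2 and GC 3. Both GC tumors lay above every control tumor, and the log2 difference was 2.39 ± 0.40 (limma adjusted p = 0.0047, edgeR 0.0025). It was called in 14 of 15 alternatives (adjusted p from 5.6e-15 to 0.306). The exception weighted each tumor by its cells, under which 0 of the 15 ligands and 48 of all genes were called by limma. Few cells carried the signal: the 787 Cxcl10 UMIs of GC TAMs lay in 10 of 43 cells, 29.4% of them in 1 cell, and the 1848 control UMIs in 170 of 723 cells. Without the top cell of each tumor the log2 difference was 1.99. In the tumors under the cell minimum Cxcl10 was at 5.80 in the 7 TAMs of GC 5 and at 0 in the 3 TAMs of GC 4. GC TAMs were also deeper, with a median of 17855 UMIs per cell against 12883.

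Cxcl2 in TAMs stood at 6.06, 6.49, 8.60, 6.75 and 9.87 in control tumors and at 12.5 and 22.7 in GC tumors. The groups did not overlap, and the log2 difference was 1.17 ± 0.24 (limma adjusted p = 0.0075, edgeR 0.0033). It was called in 13 of 15 alternatives (adjusted p from 1.7e-07 to 0.263). With tumors of at least 5 cells, which adds GC 5 (7 TAMs, Cxcl2 at 6.58), the log2 difference was 0.72 and was not called. The 3 TAMs of GC 4 stood at 2.74, below every control tumor. The neutrophil marker sum was 0.896 to 1.18 in control TAMs and 1.93 to 3.63 in GC TAMs, with 2 of its 5 genes (S100a9 and Retnlg) at 0 in GC TAMs.

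Cxcl9 in TAMs was at 5.57, 5.94, 5.16, 5.21 and 4.97 in control and at 5.59 and 10.5 in GC tumors. The lower GC tumor lay within the control range, and limma did not call it (0.50 ± 0.19, adjusted p = 0.090) while edgeR did (0.019). In the GC tumors under the cell minimum Cxcl9 stood at 28.3 (7 TAMs of GC 5) and at 0 (3 TAMs of GC 4). The ratio of Cxcl10 to Cxcl9 was 0.21 to 0.50 in control TAMs and 1.08 and 1.65 in the TAMs of GC 2 and GC 3. In the 7 TAMs of GC 5 Cxcl10 (5.80) was well under Cxcl9 (28.3), so the higher ratio was not seen there.

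Cxcl14, a ligand of epithelia and of some macrophages, stood at 0.27, 0.285, 0.291, 0.471 and 0.472 in control TAMs, and none of its UMIs was found in GC TAMs. Both GC tumors were at 0, as were the 10 TAMs of GC 4 and GC 5. With 295 UMIs in control and a floor of 3 counts over the 580319 UMIs of GC TAMs tested, Cxcl14 was at least 6.12-fold lower (limma adjusted p = 0.00037, edgeR 0.0048). It was called in 14 of 15 alternatives (adjusted p from 5.8e-05 to 0.058).

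Ccl4 in TAMs was at 4.33, 4.59, 6.28, 6.60 and 4.39 in control and at 1.75 and 3.12 in GC tumors. Its log2 difference was −1.11 ± 0.23 by limma (adjusted p = 0.0082), and edgeR did not call it (0.070). It was called in 12 of 15 alternatives. In the 7 TAMs of GC 5 it stood at 8.92 and in the 3 TAMs of GC 4 at 12.9, both above every control tumor, and with GC 5 the log2 difference was −0.48 with no call. Ccl3 was at 1.92 to 2.99 in control and at 3.58 and 2.62 in GC tumors, and limma did not call it (0.48 ± 0.19, adjusted p = 0.090). DESeq2 called it, higher (adjusted p = 0.048), and edgeR did not (0.078). In the 7 TAMs of GC 5 Ccl3 stood at 7.79 and in the 3 TAMs of GC 4 at 4.24. Both lay above every control tumor and under the Ccl4 level of the same tumor. The ratio of Ccl3 to Ccl4 in TAMs was 0.35 to 0.45 in control tumors and 2.05 and 0.84 in GC 2 and GC 3. In neutrophils the same ratio was 0.47 to 0.74 in control and 0.69 and 0.76 in GC tumors.

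Ccl9 in TAMs ranged from 2.15 to 3.89 in control tumors and was 0.656 and 1.86 in GC tumors (−1.33 ± 0.34, limma adjusted p = 0.023, edgeR 0.145), called in 11 of 15 alternatives. Cxcl16 ranged from 7.47 to 9.42 and was 5.52 and 7.29 (−0.47 ± 0.13, limma adjusted p = 0.029, edgeR 0.074), called in 5 of 15. Ccl7, with a level of 0.0975 to 0.546 in control tumors, had 1 UMI in the GC TAMs tested (−1.79 ± 0.43, limma adjusted p = 0.015, edgeR 0.301), called in 11 of 15. The ligands called by neither limma nor edgeR were Ccl24, Cxcl3, Ccl6, Pf4, Ccl2, Ccl3 and Ccl5, with limma adjusted p from 0.071 to 0.960. Pf4, known from platelets, was at 0.162 to 0.585 in control and at 0.164 and 0.282 in GC TAMs, where platelet markers were at or near 0.

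Over all 15 ligands tested in TAMs, 9 did not overlap between the groups, against 36.5% of all genes. The median log2 difference was −0.69 for the ligands and −0.12 for all genes, or −0.73 and 0.00 by edgeR. The ligand count and medians include Cxcl14, Ccl7, Cxcl3 and Ccl24, which passed the filter only through the control tumors. The GC-induced genes summed to 1.53 to 2.21 in control TAMs and 9.15 to 11.5 in GC TAMs, and the TAM marker sum was 47.0 to 66.9 and 53.7 to 74.7.

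In CD8 T cells (clusters CD8 1 to 3) no ligand passed the test. The comparison held 5 control tumors (84 to 385 cells) and GC 2, GC 3 and GC 5 (12 to 41 cells). Of 6 ligands tested limma called 0, with 3 at an unadjusted p under 0.05, and edgeR called 0, with 0 at an unadjusted p under 0.05. Over all 6158 genes 5.02% were called by limma and 6.15% by edgeR. No share of all genes at an unadjusted p was computed. The median log2 difference was −0.96 over the 6 ligands and −0.09 over all genes.

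Xcl1 stood at 0.954, 0.906, 0.573, 0.449 and 0.921 in control tumors and at 0.130, 0.110 and 0.558 in GC tumors. GC 5 reached into the control range, and the difference was not called (−1.40 ± 0.37, limma adjusted p = 0.053, edgeR 0.272). Ccl4 was at 10.4 to 18.8 in control and at 9.58, 3.66 and 10.6 in GC tumors (−0.99 ± 0.30, limma adjusted p = 0.083). Ccl3 was at 1.40 to 3.59 in control tumors, and at 0.0768, 0.485 and 2.48 in GC tumors (−2.08 ± 0.64, limma adjusted p = 0.085). For all 3, GC 5 was the highest GC tumor, and without it limma called Xcl1, Ccl3 and Ccl4, each lower. Cxcl2 was then called as well, lower, and it passed the filter only through the control tumors.

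Ccl1 ranged from 0.322 to 2.20 in control and from 0.171 to 1.19 in GC tumors (−0.93 ± 0.59), and Ccl5 from 6.22 to 10.4 and from 7.79 to 11.8 (0.18 ± 0.20, limma adjusted p = 0.630). Cxcl10 stood at 0.21, 0.0528, 0.499, 0.105 and 0.232 in control and at 1.17, 0 and 0.699 in GC tumors (0.70 ± 0.70, limma adjusted p = 0.591). Without the cell of each tumor richest in Cxcl10, a value with no test, the log2 difference was −0.46. GC 3 alone lay below the control tumors, and without it limma called Cxcl10, higher. Cxcl2 was then called as well, lower, and it passed the filter only through the control tumors. None of the 6 ligands had groups that did not overlap, against 15.2% of all genes. TAM markers summed to 0.462 to 0.968 in control CD8 T cells and to 0.0943 to 0.266 in GC ones, and Cxcl2 in the same cells was at 0.20 to 0.39 in control and at 0 to 0.089 in GC tumors, and their part in the ligand values was not tested.

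**Figure D4:**
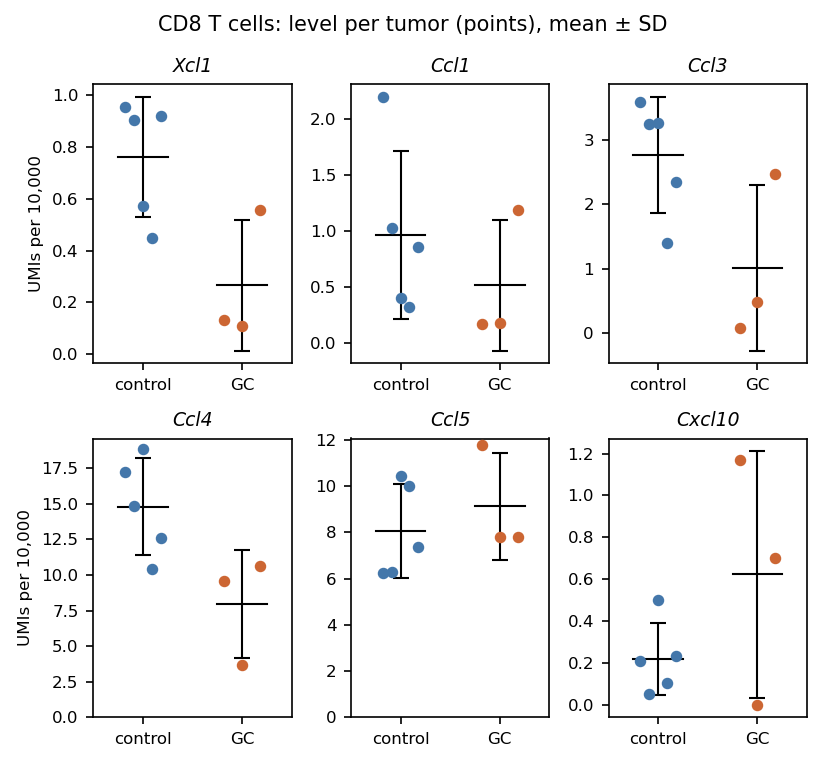
Levels of the ligands tested in CD8 T cells of each tumor in UMIs per 10000, 5 control and 3 GC tumors as points with the mean and SD of each group as a line and bars. GC 5 is the highest GC tumor for Xcl1 (0.558), Ccl3 (2.48) and Ccl4 (10.6), and every gene overlaps between the groups.

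In neutrophils no ligand passed the test. Cxcl2, their most abundant ligand, was at 72.0 to 104 in 5 control tumors (24 to 40 cells) and at 78.3 and 113 in GC 2 and GC 3 (19 and 14 cells). The log2 difference was 0.01 ± 0.16 by limma and −0.15 by edgeR. Of 7 ligands tested limma and edgeR called 0 each, against 4.83% and 4.65% of all 4411 genes. At an unadjusted p under 0.05 there was 1 by either test, and no such share of all genes was computed. None of the 7 had groups that did not overlap, against 22.2% of all genes.

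Ccl4 in neutrophils ranged from 6.78 to 23.0 in control and was 8.68 and 3.87 in GC tumors (−1.24 ± 0.47, limma adjusted p = 0.186). Ccl3 ranged from 4.16 to 13.1 and was 5.99 and 2.94 (−0.89 ± 0.43, adjusted p = 0.292 by limma). Ccl6 stood at 10.2 ± 1.36 and 10.1 ± 0.90, and Cxcl3 at 5.95 ± 2.66 and 7.34 ± 3.82. Cxcl10 had 132 UMIs in control neutrophils, at 4.15, 0.173, 3.45, 0.0423 and 0 by tumor, and 0 in GC neutrophils. Against a floor of 3 counts over the 192416 GC UMIs the pooled level was at least 12.7-fold lower, but 65.9% of the control UMIs lay in 1 cell, 1 control tumor was also at 0, and no test called it (limma adjusted p = 0.378).

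**Figure D5:**
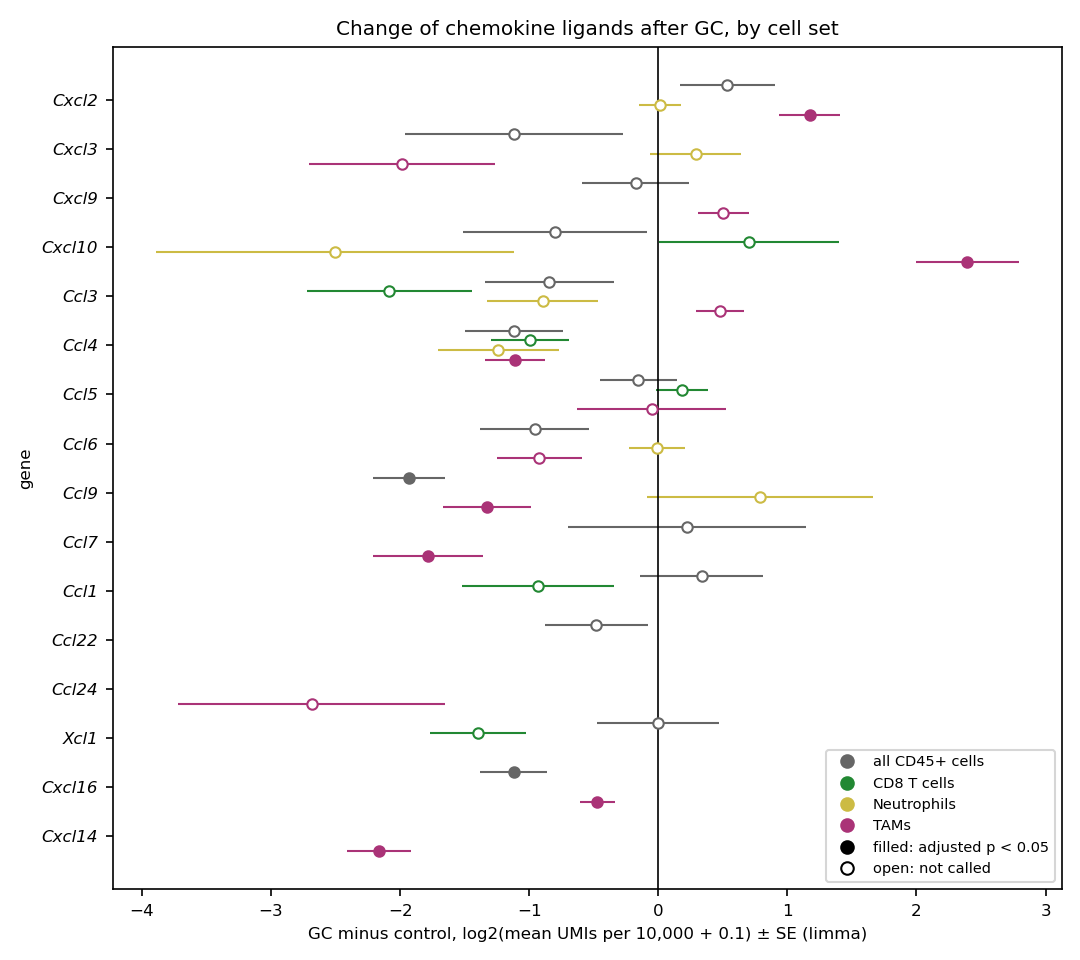
Log2 differences (GC minus control, on log2 of level plus 0.1) with their standard errors for the named ligands tested in all CD45+ cells, CD8 T cells, neutrophils and TAMs, filled where limma called them. Cxcl10 is highest in TAMs (2.39) and not called elsewhere, and Cxcl2 is 1.17 in TAMs and 0.01 in neutrophils.

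Whether a ligand's difference itself differed between TAMs and neutrophils was tested within tumors holding both. Of 7 ligands tested 0 were called by limma, against 0.283% of 3886 genes called. At an unadjusted p under 0.05 by limma there were 5, namely Cxcl2, Cxcl3, Cxcl10, Ccl3 and Ccl9. No share of all genes at an unadjusted p was computed to set beside these 5. For Cxcl2 the TAM difference exceeded the neutrophil one by 1.16 ± 0.30 (limma adjusted p = 0.115), and for Ccl4 the 2 differed by 0.13 ± 0.65. No size is given for Cxcl10, which was at 0 in GC neutrophils and passed the filter there only through the control tumors. None is given for Cxcl3, which passed the filter in TAMs only through the control tumors. Ccl9 also has no size given. It was at 0.0875 to 0.154 in control neutrophils and at 0 and 1.26 in GC ones, and passed the filter there only through the GC tumors.

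No other class had 2 GC tumors with at least 10 cells, so the rest are pooled values with exact 95% Poisson intervals that cover counting error only, and no test. In Monocytes 1 (311 control and 18 GC cells) Cxcl10 was at 9.28 (8.97 to 9.59) in control and 1.13 (0.780 to 1.57) in GC cells, where 1 cell held 91.2% of the UMIs. Cxcl2 was at 19.5 (19.0 to 19.9) and 60.3 (57.6 to 63.2), 34.5% of the latter in 1 cell, Cxcl9 at 5.16 and 4.67, and Ccl9 at 3.88 (3.69 to 4.09) and 1.66 (1.23 to 2.18). Cxcl10 was thus lower in GC cells of Monocytes 1 and higher in those of the TAM cluster, a contrast that was not tested. The share of Cxcl10 UMIs held by monocytes was 54.4% in control and 3.47% in GC cells, that of TAMs 27.3% and 80.3%. Monocytes made up 11.8% of control and 6.89% of GC cells, and TAMs 19.0% and 14.1%.

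Among the DC, Ccl22 in DC 1 (97 and 10 cells) was at 17.4 (16.8 to 18.1) in control and 8.38 (7.22 to 9.67) in GC cells, while Ccl17 was at 2.47 (2.23 to 2.73) and 4.12 (3.32 to 5.06). Cxcl16 there was at 9.0 (8.53 to 9.49) and 8.56 (7.39 to 9.87). In DC 2 (95 and 9 cells) Ccl4 was at 8.0 (7.56 to 8.46) and 1.52 (1.0 to 2.22), with 92.6% of the GC UMIs in 1 cell. Cxcl9 in DC 2 was at 6.67 and 2.37, the latter from 1 cell.

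In NK cells (107 and 4 cells) Ccl5 was at 16.3 (15.6 to 17.1) and 1.13 (0.518 to 2.15), the latter from 1 cell, and Xcl1 at 3.91 and 1.89. Ccl6 in eosinophils (478 and 32 cells) was at 38.6 (36.8 to 40.4) and 11.5 (8.41 to 15.3), or 14.8 (10.8 to 19.7) without the cell rich in Mcpt2. Cxcl2 in eosinophils was at 21.1 (19.8 to 22.5) and 16 (12.3 to 20.4), or 20.5 without that cell.

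The receptors give the receiving side. In CD8 T cells Ccr2 (4.88 ± 0.56 to 1.22 ± 0.62) and Cxcr6, the receptor for Cxcl16 (9.28 ± 0.92 to 6.06 ± 1.11), were lower by limma. Cxcr4 (1.35 ± 0.32 to 3.25 ± 0.96) and Ccr7, the receptor for lymph node homing (0.25 ± 0.17 to 1.20 ± 0.94), were higher. By edgeR Ccr2, Cxcr4 and Cxcr6 were also called, and Ccr7 was not. Cxcr3, the receptor for Cxcl9 and Cxcl10, was at 0.37 ± 0.06 and 0.28 ± 0.18 with limma adjusted p = 0.477.

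In TAMs Cx3cr1 (1.67 ± 0.32 to 0.30 ± 0.16) and Ccr2 (10.9 ± 0.91 to 8.59 ± 0.20) were lower by limma, and Cxcr2, the receptor for Cxcl2, was higher (0.0408 ± 0.0347 to 0.783 ± 0.0469). Cxcr2 passed the filter there only through the GC tumors, and it is also among the neutrophil markers. Cx3cr1 and Cxcr2 were also called by edgeR, and Ccr2 was not. In neutrophils Cxcr5 was lower by limma and by edgeR (0.51 ± 0.35 in control and 0 in GC tumors), and Cxcr2 was at 7.72 ± 1.60 and 7.57 ± 2.28. Cxcr5 passed the filter there only through the control tumors. In all CD45+ cells Ccr3 and Cx3cr1 were lower by limma and by edgeR.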

How the data were processed

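Single-cell RNA-seq (10x 3' v3.1) was made of live CD45+ cells from 5 control and 5 GC tumors, each group in 1 channel with a hashtag per tumor. Per the labels and the study's methods the authors used Cell Ranger 7.1.0 on mm10 with introns counted, then Seurat 5.0.3 in R 4.3.1 to assign hashtags, keep singlets and remove outlying cells. The authors deposited expression as the natural log of 1 plus UMIs per 10000. They also deposited per-cell UMI, gene and hashtag counts, the percent of mitochondrial UMIs, the tumor and the cluster name. Undoing the log gave whole UMI counts.

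Levels were averaged over the cells of a tumor with at least 10 cells of the class. Genes with a mean of at least 0.2 were tested with limma 3.58.1 (R 4.3.3, trended and robust, two-sided) on log2(level + 0.1), with Benjamini-Hochberg adjustment over all genes tested and a threshold of 0.05. edgeR 4.0.16 (quasi-likelihood) and DESeq2 1.42.0 on summed UMIs were alternatives, as were another pseudocount, filter, scaling, cell minimum and weighting, and leaving out each tumor. The filter mean was taken over the tumors of both groups, so a gene near 0 in 1 group could pass through the other. The tests were checked on simulated sums per tumor, which hold no single cells. The tumor, not the cell, is the replicate. Only the 2 hashtagged channels enter, and no other per-sample columns were left out. Tables were handled in Python 3.11.15 with pandas 2.3.3, NumPy 2.4.6 and SciPy 1.17.1.

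Total UMIs ranged from 139195 in GC 1 to 9869474 in control 3, so GC values rest on fewer cells and are less precise. Intervals and floors of 3 counts cover counting error only. Named ligands were those called by limma in any comparison or with a control mean of at least 1 in a cluster with 3 or more control tumors. The members, lists, tests and alternatives were chosen with earlier results of these data known. Promoter and gene positions come from RefSeq (GRCm38.p6) and GENCODE (GRCm38). Protein sequences were not used here. Not every receptor tested is reported here.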

Additional observations from a re-analysis of the deposited data

Results flagged for a closer look

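In 54 groups of 4 or 5 tumors examined for a value that stood apart from the rest by Dixon's criterion, 3 did so, where chance gives about 1 in 20. Ccl7 in all CD45+ cells was at 4.11 UMIs per 10000 in GC 2, and the next GC tumor was at 0.0062; a single cell held 265 of the 270 Ccl7 UMIs of the GC cells. Cxcl16 in TAMs was at 7.47 in control 5, and the next control tumor was at 8.95. Ccl3 in TAMs was at 2.99 in control 4, and the next control tumor was at 2.20.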

How the results depend on the processing

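Of 40 named log2 differences, 11 changed sign under some refitted alternative, none of them called in the analysis as reported. That count leaves out values with no test. Without the top cell of each tumor, Ccl7 in all CD45+ cells went from 0.22 to −0.34, and Ccl9 in neutrophils from 0.79 to −0.48. Cxcl10 in CD8 T cells (−0.46) and Cxcl3 (−0.36) and Cxcl2 (−0.079) in neutrophils also changed sign. With control class shares Cxcl9 (0.75) and Cxcl10 (0.42) in all CD45+ cells did so. The number of ligands called in all CD45+ cells was 2, and 4 with at least 20 cells, 1 by edgeR and 1 weighted by cells; leaving out 1 tumor gave 1 to 4, the 4 without GC 1 (Ccl4, Ccl9, Ccl24, Cxcl16) and 1 (Ccl9) without GC 4 or control 1, 2, 3 or 4. In CD8 T cells it was 0, and 1 with at least 20 cells (Cxcl2) and 2 with no filter; leaving out 1 tumor gave 0 to 4, the 4 without GC 5, 2 without GC 3 (Cxcl2 and Cxcl10) and 1 without GC 2. In neutrophils it was 0, and 1 (Ccl4) with no filter; leaving out 1 tumor gave 0 to 1, the 1 (Ccl4) without control 3. In TAMs it was 7, and 4 by edgeR and 0 weighted by cells; leaving out 1 tumor gave 5 to 9, and without GC 2 Ccl9, Ccl7 and Cxcl16 were lost, without GC 3 Ccl7, and without control 1, 2, 3 or 4 Cxcl16. With at least 5 cells Cxcl2, Ccl4 and Ccl9 were lost there. For the difference between TAMs and neutrophils it was 0, and 2 with a pseudocount of 0.5 (Ccl9 and Cxcl2); leaving out 1 tumor gave 0 to 1, the 1 (Ccl9) without GC 2. A fit that leaves 1 GC tumor assumes that it varies like the others. Apart from the analysis as reported, edgeR and the weighting by cells, no share of all genes was computed beside these counts.

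Sign changes among the refitted alternatives were as follows, first in all CD45+ cells. Xcl1 was 0.070 with median-of-ratios scaling, 0.095 with a pseudocount of 0.5 and 0.00058 without the cell richest in Ccl7, and −0.34 to 0.45 over tumors left out. Cxcl9 was 0.034 by DESeq2, 0.11 by edgeR and 0.22 weighted by cells, and −0.38 to 0.24 over tumors left out. Cxcl10 was 0.40 by DESeq2, 0.032 with at least 20 cells and 0.46 by edgeR, and −1.15 to 0.032 over tumors left out. Ccl1 was −0.026 to 0.65 and Ccl5 −0.36 to 0.049 over tumors left out. In CD8 T cells Ccl5 was −0.013 with at least 20 cells, −0.10 with at least 5 and −0.029 weighted by cells, and −0.013 to 0.28 over tumors left out; Cxcl10 was −0.019 and −0.19 at those cell minimums, and −0.019 to 1.81 over tumors left out. In neutrophils Cxcl2 was −0.13 by DESeq2, −0.15 by edgeR, −0.029 with median-of-ratios scaling, −0.083 from summed UMIs and −0.043 weighted by cells, and −0.25 to 0.28 over tumors left out; Cxcl3 was −0.18 with at least 5 cells and −0.26 to 0.84 over tumors left out, and Ccl6 −0.10 to 0.080. In TAMs Ccl5 was 0.066 with median-of-ratios scaling and −0.68 to 0.58 over tumors left out. The cause of these moves was not tested.

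No paired analysis was possible because hashtag numbers only name tumors. A minimum of 5 cells added no tumor in all CD45+ cells. A minimum of 20 cells gave no value in TAMs or neutrophils, nor did any alternative in classes with fewer than 2 GC tumors. The GC cells limit every comparison: 305 in all, and 33 TAMs and 33 neutrophils tested, so that a few cells decide a level.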
